A study of Mus musculus with 4 samples.

Results

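The 33 genes for proteins of the small ribosomal subunit were followed in direct RNA reads of mouse embryonic stem cells. They were taken by symbol, as the numbered Rps genes together with Rpsa, Fau and Rack1, leaving out S6 kinases and pseudogenes, and made up 33 of the 13831 symbols in the deposited table. All 33 had reads with a tail length above 0 in all 4 libraries. The cells were of the J1 line, grown without further treatment in medium with fetal calf serum and LIF, and were either wild type for Mov10 (WT) or Mov10 KO (KO). Mov10 is an RNA helicase. How the knockout was made and whether it is a single clone are not given in the sources used here. There were 2 libraries of each genotype (WT 1 and WT 2, KO 1 and KO 2), each made from 4 µg of total RNA enriched for poly(A) RNA on oligo(dT) beads. The study compared poly(A) tail lengths between the genotypes. Nothing in the labels says that libraries of a genotype came from separate cultures, so p-values measure only the spread between these libraries, which may be technical.

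The small subunit of the ribosome holds the decoding centre, where codons of the mRNA meet the anticodons of tRNAs. It is built on its ribosomal RNA in the nucleolus by many assembly factors and finished in the cytoplasm. Its proteins are made in near equal numbers from single-copy genes, although the genome holds many processed pseudogenes of each. Most of these mRNAs belong to the TOP class, which begin with a cytosine followed by a run of pyrimidines at the 5′ end. TOP mRNAs are held back from or released to translation together, under control of mTOR and the binding protein Larp1. Embryonic stem cells divide quickly and express these genes strongly. The poly(A) tail at the 3′ end of an mRNA binds Pabpc1 and is shortened before the mRNA decays.

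Pyrimidine runs near the annotated start are shown for members whose reads or tails are described below, with Rps3a1 as a member without one. RefSeq promoter sequences of GRCm38.p6 were searched for 25 of the 33 members. The other members, Rps14 among them, were left out of this search, so nothing is said here about their starts. A window of 30 bases, from 10 bases before the annotated start to 20 bases from the start on, was searched on the sense strand for at least 7 consecutive bases that were C or T, and the capitals mark the longest run. Fau lies at chr19:6057937-6057966 on the plus strand, Rack1 at chr11:48800350-48800379 on the plus strand and Rps10 at chr17:27635225-27635254 on the minus strand. Rps18 lies at chr17:33955646-33955675 on the minus strand, Rps6 at chr4:86857348-86857377 on the minus strand, Rps26 at chr10:128626487-128626516 on the minus strand and Rps3a1 at chr3:86142649-86142678 on the minus strand. All are given 5′ to 3′ on the gene's own strand.
Fau: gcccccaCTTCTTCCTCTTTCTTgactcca
Rack1: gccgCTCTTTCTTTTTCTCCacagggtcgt
Rps10: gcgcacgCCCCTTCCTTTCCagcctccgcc
Rps18: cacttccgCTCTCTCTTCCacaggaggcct
Rps6: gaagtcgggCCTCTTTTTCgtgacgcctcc
Rps26: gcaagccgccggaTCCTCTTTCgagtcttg
Rps3a1: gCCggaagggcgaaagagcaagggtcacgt
Fau and Rack1 had runs of 16 pyrimidines and Rps10 of 13. Such a run was found in 13 of the 25 members (52%), in 19 of 34 large subunit genes (55.9%), and in 5551 of the 27025 genes with a promoter sequence (20.5%). A run not found says only that these letters were not in this window of the annotated start. A run found could lie anywhere in the window and at any annotated start of the gene, so it does not show a TOP start. The run began at base 4 from the start in Rps26 and at base 9 in Rps12. Rps19 was counted only through the last of its annotated starts, with a run of 7 from base 7. Tail lengths were close in both groups of members: the median was 100.2 nt with and 99.5 nt without a run in WT 1, and 95.2 nt and 97.0 nt in KO 2. In WT 2 the medians were 102.7 nt and 102.5 nt, and in KO 1 they were 101.0 nt and 103.3 nt.

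The libraries held from 351133 to 683239 reads with a tail above 0, on 11013 to 12065 symbols. Mov10 had 26 reads in WT 1 and 14 in WT 2, against 0 in KO 1 and 1 in KO 2. All 10 embryonic stem cell markers on a list of Pou5f1, Nanog and others were detected, with a summed level of 9565 and 9691 RPM in WT 1 and WT 2, and 8307 and 7246 RPM in KO 1 and KO 2, where RPM is reads of a gene per 1000000 reads of the library. These sums were lower in both KO libraries than in both WT libraries. Of 6 fibroblast genes Thy1 alone was detected, at 5.70 to 13.95 RPM, and Col1a1, Col1a2, Col3a1, Acta2 and Postn had 0 reads. Of 7 germ layer genes T, Sox17 and Sox1 had 0 reads, and the list summed to at most 4.55 RPM in any library. The library WT 1 stood apart in its transcripts: among 24 members with under 99% of their reads on a single transcript, the share on the most frequent transcript was highest in WT 1 for 17, with medians of 95.4 and 85.9% in WT 1 and WT 2, and 84.2 and 87.1% in KO 1 and KO 2. The same held for 114 of 139 other genes with at least 200 reads in each library and under 99% on their main transcript. Results that change without WT 1 are given below with that value.

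**Figure D1:**
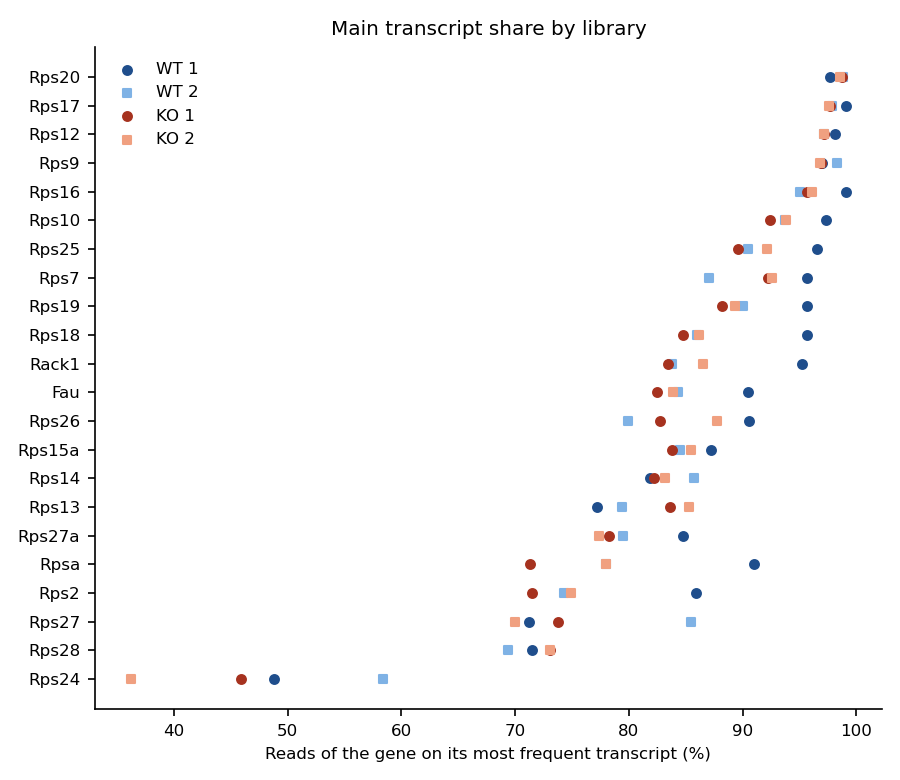
Share of a member's reads (%) that lay on its most frequent transcript, for the 22 plotted members below 99%, with 1 point per library. WT 1 is the highest point for 15 of the 22, and Rps24 lies lowest, between 36.2% and 58.4%.

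Small subunit mRNAs took a large part of all reads. Member reads numbered 64905 and 49374 in WT 1 and WT 2, and 96959 and 55370 in KO 1 and KO 2. Their share was 14.8 and 14.1% in WT 1 and WT 2, and 14.2 and 12.9% in KO 1 and KO 2. The exact 95% binomial intervals ran from 14.7 to 14.9% for WT 1, from 13.9 to 14.2% for WT 2, from 14.1 to 14.3% for KO 1, and from 12.8 to 12.98% for KO 2. The intervals cover counting error only. KO 2 was the lowest library and KO 1 lay between the WT libraries, so the genotypes overlapped. With all reads on the members' main transcripts, whatever their symbol, they did not overlap: the share was 14.8 and 13.7% in WT 1 and WT 2, and 13.5 and 12.6% in KO 1 and KO 2, a difference of -1.21 percentage points. WT 2 and KO 1 lay close, at 13.70 and 13.54%. This count leaves out reads on a member's other transcripts, and WT 1 stood apart in its high share on main transcripts. What that adds to the difference was not tested, and the difference without WT 1 was not computed for this count. By symbol, the WT mean was 14.4% ± 0.499 (SD, n = 2) and the KO mean 13.5% ± 0.930 (SD, n = 2). The difference of -0.880 percentage points compares with a pooled SD between replicates of 0.746 points, and without KO 2 it was -0.223, without WT 1 -0.528 and without KO 1 -1.54 points. With 2 libraries against 2 there are 6 arrangements, an exact permutation test cannot give a two-sided p under 0.333, and none was run on such values. The 47 large subunit genes took 18.8 and 17.3% in WT 1 and WT 2, and 17.4 and 16.4% in KO 1 and KO 2. In bulk RNA, fewer cells with an mRNA and less of it per cell cannot be told apart.

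Members differed strongly in read number. In direct RNA sequencing a read is a single molecule, so a level in RPM is not divided by length. The 4 highest by mean RPM were Rps27a, Rps12, Rps20 and Rps23. Rps27a, which encodes ubiquitin fused to a ribosomal protein of the head, had 8723 and 9162 RPM in WT 1 and WT 2, and 9436 and 8293 RPM in KO 1 and KO 2. Rps12, another head protein, had 7689.9 and 7593 RPM in WT 1 and WT 2, and 7914 and 7430.0 RPM in KO 1 and KO 2. Rps20, a head protein that is ubiquitinated when ribosomes collide, had 7059.7 and 6334 RPM in WT 1 and WT 2, and 6602 and 5977 RPM in KO 1 and KO 2. In these 3 genes the genotypes overlapped. Rps23, which lines the decoding centre, had 5929 and 6100.2 RPM in WT 1 and WT 2, and 5609 and 5093 RPM in KO 1 and KO 2. Rps27a was the highest member in every library, and its lowest value, 8293 RPM, lay above the highest of Rps12, 7914 RPM. Rps20 was above Rps23 in every library, though their ranges over the libraries overlapped. Rack1, the scaffold protein on the back of the head, had 6323 and 5437 RPM in WT 1 and WT 2, and 5445 and 5346 RPM in KO 1 and KO 2, with WT 1 the highest.

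Among the members described next, Rpsa ranked highest by mean RPM, at 7 of 33, and Rps3 lowest, at 26. Rpsa, also known as the laminin receptor, had 5103 and 4702 RPM in WT 1 and WT 2, and 5429 and 4860.3 RPM in KO 1 and KO 2. Fau, whose protein is made as a fusion with a ubiquitin-like domain, had 3429 and 3529 RPM in WT 1 and WT 2, and 3814 and 3744 RPM in KO 1 and KO 2. Rpsa overlapped between genotypes, while in Fau both KO libraries were higher in RPM, with a log2 change of 0.01 after the scaling used in the test. Rps3 of the mRNA entry site had 4116 and 3321 RPM in WT 1 and WT 2, and 3557 and 3409 RPM in KO 1 and KO 2, with overlap. Rps2, also at the entry site, had 6027 and 3529 RPM in WT 1 and WT 2, and 4498 and 4030.1 RPM in KO 1 and KO 2, and WT 1 stood well above the other libraries. Rps6, the substrate of the S6 kinases, had 4013 and 4320.3 RPM in WT 1 and WT 2, and 3953 and 3495 RPM in KO 1 and KO 2, with KO 1 and KO 2 below both WT libraries. Rps14 of the platform had 4425 and 4485 RPM in WT 1 and WT 2, and 4540.1 and 4351 RPM in KO 1 and KO 2, nearly level across libraries. Rps19, the gene most often mutated in Diamond-Blackfan anaemia, had 4769 and 5730.0 RPM in WT 1 and WT 2, and 5086 and 4293 RPM in KO 1 and KO 2. It was highest in WT 2. The order of members by reads was alike in all libraries, with Spearman's rho from 0.833 to 0.917 over 33 genes for the 6 pairs of libraries. These are correlations across genes of the same cells and share gene and method, and carry no test.

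The fewest reads were listed under Rps13, Rps7, Rps27 and Rps26, and in each of these the same transcript carried reads under another symbol as well. Rps13, a protein of the body, had 259.4 and 179.4 RPM in WT 1 and WT 2, and 313.2 and 237.2 RPM in KO 1 and KO 2. Its main transcript in the table, ENSMUST00000183478.1, held 6927 reads, of which only 404 carried the symbol Rps13 and 6491 carried Rps13-ps1, the name of a pseudogene. Counted over all symbols, that transcript had 3772 and 3637 RPM in WT 1 and WT 2, and 3530.2 and 3674 RPM in KO 1 and KO 2, which ranked it 24 of 33. For Rps26 (ENSMUST00000026420.6), a protein at the mRNA exit, 53.1% of the transcript's 8551 reads carried the gene's own symbol and 3846 reads carried Rps26-ps1. The transcript of Rps27, a zinc-binding protein, was split into 1581 reads for Rps27 and 2517 for Rps27rt. That of Rps7, a body protein that also binds Mdm2, was split into 1046 reads for Rps7 and 1267 for Lx3B, a name of a repeat element. Over all 33 members, at least 99% of the main transcript's reads carried the member's symbol for 19, at least 95% for 27, and under 60% for these 4. How the authors assigned symbols to such reads is not given in the sources used here, so levels and tails of the 4 genes under their own symbol are uncertain. Counted by transcript, the lowest member was Rps7, with a mean of 1221 RPM.

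**Figure D2:**
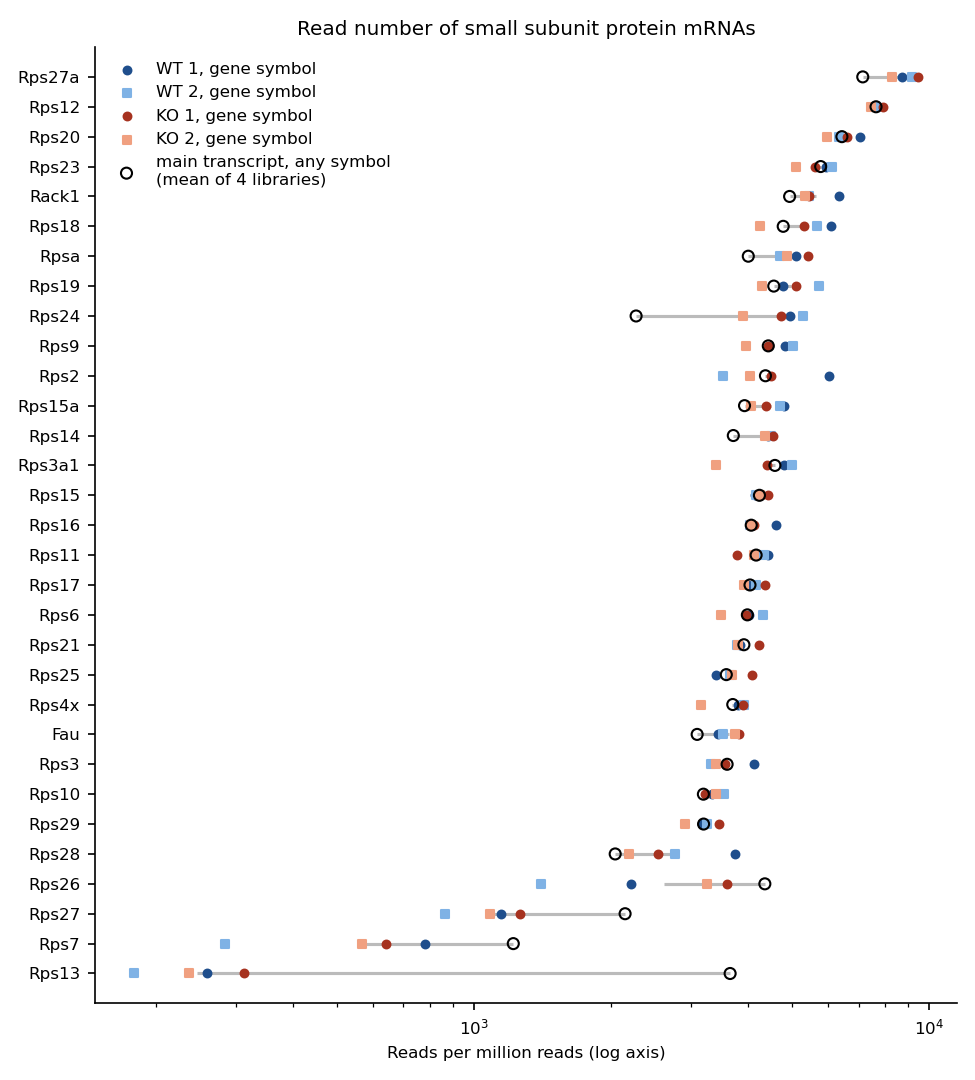
Reads per 1000000 reads (log axis) for 31 members, with 1 filled point per library for reads under the member's own symbol and an open circle for the mean over the 4 libraries of all reads on its main transcript, whatever their symbol. Rps13 lies near 179.4 to 313.2 RPM by symbol and at 3653 RPM by transcript.

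Tails of small subunit mRNAs were of even length. For each gene and library the median tail over reads was taken; all 33 members had at least 20 reads in every library, the minimum for this value, and so did 1902 other genes. The median over members was 98.9 and 102.1 nt in WT 1 and WT 2, and 101.2 and 95.8 nt in KO 1 and KO 2. Over the other genes it was 102.3 and 109.5 nt in WT 1 and WT 2, and 110.3 and 102.2 nt in KO 1 and KO 2. Members lay below the median of all genes for 23 and 25 of 33 genes in WT 1 and WT 2, and for 31 and 29 in KO 1 and KO 2. On the log2 scale the member median minus that of other genes was -0.05 and -0.10 in WT 1 and WT 2, and -0.12 and -0.09 in KO 1 and KO 2, a mean of -0.09 ± 0.03 (SD, n = 4 libraries). This changed with the minimum of reads required of each gene. Genes outside both subunit lists are the other genes less the 47 large subunit genes. Related symbols such as Rps27l, Rps4l, Rps27rt, Rps26-ps1, Rps2-ps10 and Rps13-ps1 stayed among them. Of these genes, 149 had at least 200 reads in every library. Their median tail was 98.5 nt in WT 1 against 98.8 nt for the 31 members left, and 109.9 nt against 101.9 nt in WT 2. It was 108.8 nt against 101.1 nt in KO 1 and 102.8 nt against 95.7 nt in KO 2. Among the 13 such genes with at least 1000 reads the order turned, with 88.7 nt against 98.9 nt for 28 members in WT 1 and 84.7 nt against 95.4 nt in KO 2. The order turned likewise at this depth in WT 2 (89.9 nt against 101.8 nt) and in KO 1 (94.4 nt against 101.2 nt). These 13 genes included Rps13-ps1, and mitochondrially encoded genes were not left out of the set. Their tails varied widely, with an SD over genes of 21.4 nt in WT 1 and 25.4 nt in WT 2. The parts of depth and of the make-up of the set in this turn were not tested.

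Spread among members was small, as it was among large subunit genes. The SD of the 33 median tails was 6.82 and 9.102 nt in WT 1 and WT 2, and 5.24 and 7.03 nt in KO 1 and KO 2. For the other genes it was 18.7 and 19.2 nt in WT 1 and WT 2, and 17.8 and 16.8 nt in KO 1 and KO 2. Members held at least 63 reads each in every library, and other genes with few reads have less precise medians. Among genes with at least 200 reads the SD was still 6.68 nt for members and 16.9 nt for genes outside both subunit lists in WT 1, and 7.21 nt and 16.5 nt in KO 2. Large subunit genes had medians of 98.00 and 102.8 nt in WT 1 and WT 2, and 101.6 and 97.00 nt in KO 1 and KO 2. The SD over these 47 genes was 7.10 and 7.59 nt in WT 1 and WT 2, and 7.25 and 7.19 nt in KO 1 and KO 2. Members had the smaller SD in all libraries but WT 2. The small minus large difference was between -1.19 nt and 0.920 nt in the 4 libraries. Within the small subunit, the 15 head proteins were compared with the 18 proteins of body and platform. The head median was 98.8 and 101.7 nt in WT 1 and WT 2, and 99.5 and 94.3 nt in KO 1 and KO 2. The body and platform median was 99.6 and 102.4 nt in WT 1 and WT 2, and 101.5 and 97.4 nt in KO 1 and KO 2. Head genes were lower in each library, by 0.655 nt to 3.12 nt.

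Rps14, Rps19, Rps28 and Rps18 had the shortest tails. Rps14 had 79.96 and 86.6 nt in WT 1 and WT 2, and 88.8 and 79.03 nt in KO 1 and KO 2. It was the shortest member in every library. Rps19 had 92.5 and 89.96 nt in WT 1 and WT 2, and 94.5 and 81.2 nt in KO 1 and KO 2, with KO 2 well below the others. Rps28, a small protein next to the mRNA exit and the only member the authors' deposited classes call a Mov10 target with m6A, had 88.2 and 92.5 nt in WT 1 and WT 2, and 91.1 and 86.5 nt in KO 1 and KO 2. Rps18, a head protein at the bridge to the large subunit, had 92.8 and 97.4 nt in WT 1 and WT 2, and 97.7 and 89.4 nt in KO 1 and KO 2. Rps19 and Rps28 did not differ beyond their spread, and in all 4 genes the genotypes overlapped.

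Under the members' own symbols, the longest tails were those of Rps7, Rps27, Rps4x and Rps21. Rps7 had 108.3 and 134.5 nt in WT 1 and WT 2, and 107.5 and 100.1 nt in KO 1 and KO 2, where WT 2 rested on 100 reads with a 95% interval of the median from 116.3 to 146.0 nt. Rps27 had 109.9 and 123.5 nt in WT 1 and WT 2, and 106.0 and 107.8 nt in KO 1 and KO 2. Both are genes with shared transcripts, and by symbol in both WT 2 was the highest library and both KO libraries lay under WT 1. Over all symbols, the main transcript of Rps27 had 97.7 and 103.05 nt in WT 1 and WT 2, and 97.6 and 94.15 nt in KO 1 and KO 2. That of Rps7 had 108 and 134.0 nt in WT 1 and WT 2, and 112.1 and 95.8 nt in KO 1 and KO 2. That of Rps26 had 105.9 and 120.0 nt in WT 1 and WT 2, and 110.6 and 105.15 nt in KO 1 and KO 2. Rps4x, encoded on the X chromosome, had 107.1 and 117.5 nt in WT 1 and WT 2, and 113.5 and 109.0 nt in KO 1 and KO 2. Rps21, a protein of the body, had 108.6 and 115.2 nt in WT 1 and WT 2, and 110.7 and 109.9 nt in KO 1 and KO 2. The 4 overlapped with each other, and their order changed between libraries.

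**Figure D3:**
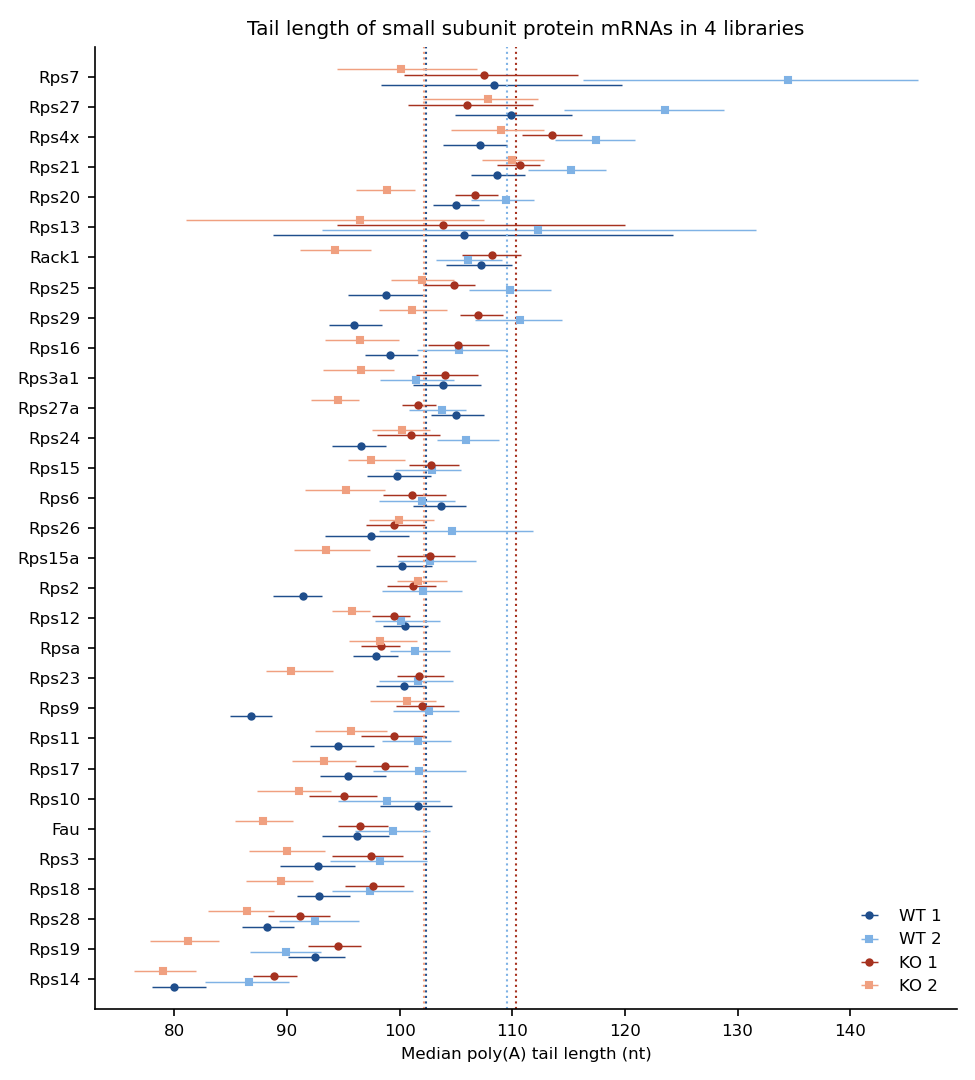
Median poly(A) tail length (nt) of 31 members in the 4 libraries, ordered by the mean over libraries, with bars for the 95% interval of the median over reads. Dotted lines show the median over the 1902 other genes in each library; Rps14 is the lowest member and WT 2 of Rps7 the highest point at 134.5 nt.

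The other members of interest lay between. Rps27a had 105.0 and 103.7 nt in WT 1 and WT 2, and 101.7 and 94.6 nt in KO 1 and KO 2. Rps12 had 100.5 and 100.2 nt in WT 1 and WT 2, and 99.5 and 95.8 nt in KO 1 and KO 2. Rps20 had 105.0 and 109.5 nt in WT 1 and WT 2, and 106.7 and 98.8 nt in KO 1 and KO 2. KO 2 was the lowest library in each of these, and in Rps27a and Rps12 both KO libraries were under both WT libraries. Rps23 had 100.4 and 101.6 nt in WT 1 and WT 2, and 101.7 and 90.3 nt in KO 1 and KO 2. Rack1 had 107.3 and 106.1 nt in WT 1 and WT 2, and 108.2 and 94.3 nt in KO 1 and KO 2. In both of these KO 2 lay well under the others. Rps6 had 103.7 and 102.0 nt in WT 1 and WT 2, and 101.1 and 95.2 nt in KO 1 and KO 2. Here both KO libraries were below both WT libraries. Rpsa had 97.9 and 101.4 nt in WT 1 and WT 2, and 98.4 and 98.3 nt in KO 1 and KO 2. Fau had 96.2 and 99.4 nt in WT 1 and WT 2, and 96.5 and 87.9 nt in KO 1 and KO 2, and Rps3 had 92.8 and 98.2 nt in WT 1 and WT 2, and 97.5 and 89.99 nt in KO 1 and KO 2. These 3 overlapped between genotypes. Rps2 had 91.4 and 102.1 nt in WT 1 and WT 2, and 101.2 and 101.6 nt in KO 1 and KO 2, and WT 1 alone was low. Rps9, a body protein, had the same pattern. The order of members by tail was least alike between WT 1 and KO 2 (Spearman's rho 0.431, across 33 genes) and most alike between WT 2 and KO 1 (0.893), so likeness did not follow genotype. All 33 members were shorter in KO 2 than in WT 2, and so were 69% of the 1902 other genes, whose median went from 109.5 to 102.2 nt. In WT 1, 26 of 33 members (78.8%) and 65.1% of the other genes were shorter than in WT 2.

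Within a gene, tails of single molecules spread widely. Of member reads, tails under 30 nt made up 1.65 and 1.91% in WT 1 and WT 2, and 1.09 and 1.92% in KO 1 and KO 2. Of all other reads they made up 2.47 and 3.202% in WT 1 and WT 2, and 1.63 and 2.88% in KO 1 and KO 2. Long tails, of at least 150 nt, made up 14.9 and 20.03% in WT 1 and WT 2, and 19.4 and 14.96% in KO 1 and KO 2 of member reads. Among other reads they made up 19.5 and 24.6% in WT 1 and WT 2, and 24.4 and 20.2% in KO 1 and KO 2. Against these pooled reads both shares were lower for members in all 4 libraries, but this changed with the minimum of reads required. Taken as medians over genes with at least 1000 reads, the long share of members was the higher in WT 1 (14.9% against 13.5% for 13 genes outside both subunit lists), KO 1 (19.6% against 19.0%) and KO 2 (14.96% against 12.3%), and was 19.6% against 19.7% in WT 2. The short share at this depth was lower for members in each library, but with at least 200 reads it was 1.15% against 1.12% in KO 1. Between genotypes they did not separate: the short share differed by -0.276 points (KO minus WT, pooled replicate SD 0.433) and the long share by -0.273 points (SD 3.40). Either sign was seen when each library was left out, from -0.689 to 0.137 points for short and from -2.85 to 2.31 points for long tails. The width of the distribution, taken as the interquartile range over the median, had a median over members of 63.2 and 69.6% in WT 1 and WT 2, and 69.3 and 67.03% in KO 1 and KO 2. Over other genes the median was 72.1 and 70.1% in WT 1 and WT 2, and 68.6 and 71.9% in KO 1 and KO 2. Of the 33 members, 30 were narrower than this median in WT 1 and 24 in KO 2, but only 17 in WT 2 and 15 in KO 1. Large subunit genes had medians of 63.4 and 68.1% in WT 1 and WT 2, and 69.3 and 69.04% in KO 1 and KO 2, close to those of members. With at least 200 reads, genes outside both subunit lists were the narrower in WT 2, KO 1 and KO 2, with 64.4%, 62.0% and 65.1% against 69.6%, 69.3% and 67.4% for members, and members were the narrower in WT 1.

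Reads on the same transcript but under different symbols could differ in tail length. Under Rps26-ps1, tails were longer than under Rps26 by 15.5 and 12.1 nt in WT 1 and WT 2, and 19.98 and 8.09 nt in KO 1 and KO 2. Under Rps27rt they differed from Rps27 by -15.4 and -25.1 nt in WT 1 and WT 2, and -9.44 and -19.2 nt in KO 1 and KO 2, shorter in every library. For Rps13 and Rps13-ps1 the differences were -7.495 and -3.52 nt in WT 1 and WT 2, and 3.46 and 1.11 nt in KO 1 and KO 2, with mixed signs. Reads of the Rps25 transcript that carried L1_Mur2, the name of a repeat element, were longer-tailed by 25.02 and 37.2 nt in WT 1 and WT 2, and 32.3 and 21.05 nt in KO 1 and KO 2, on 50 to 93 reads in each library. Both symbols on the Rps2, Rps3a1 and Rps7 transcripts gave mixed signs. These splits were looked at after the values had been seen, and have no test.

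Different transcripts of a gene were compared in the same way, among those with at least 20 reads in every library. There were 27 such transcripts beside the main one in 17 members; 13 of the 27 differed from the main transcript with the same sign in all 4 libraries, 5 longer and 8 shorter. The second transcript of Rps14 (ENSMUST00000235966.1) had tails longer than the main one by 16.9 and 11.3 nt in WT 1 and WT 2, and 13.6 and 19.2 nt in KO 1 and KO 2. For Rps27, ENSMUST00000170122.3 was longer by 15.4 and 22.8 nt in WT 1 and WT 2, and 15.9 and 7.13 nt in KO 1 and KO 2. In Rps26 the second transcript (ENSMUST00000077208.5) differed by -10.3 and -27.1 nt in WT 1 and WT 2, and -19.5 and -12.04 nt in KO 1 and KO 2, shorter in each library. Rps18 also had a transcript with shorter tails throughout, by -10.3 to -7.74 nt. Rps24, whose alternative short exons near the stop codon change the end of the protein, divided its reads most evenly. Its most frequent transcript (ENSMUST00000169826.2) took 48.8 and 58.4% in WT 1 and WT 2, and 45.9 and 36.2% in KO 1 and KO 2. The next (ENSMUST00000225023.1) took 40.2 and 31.2% in WT 1 and WT 2, and 39.1 and 51.9% in KO 1 and KO 2. In KO 2 alone the second was the more frequent. Tails of the 2 did not differ in a fixed direction, with differences of -14.6 and 4.52 nt in WT 1 and WT 2, and -3.55 and -2.96 nt in KO 1 and KO 2. Transcripts that share most of their sequence are told apart by few bases in reads of this kind, so assignments are uncertain.

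**Figure D4:**
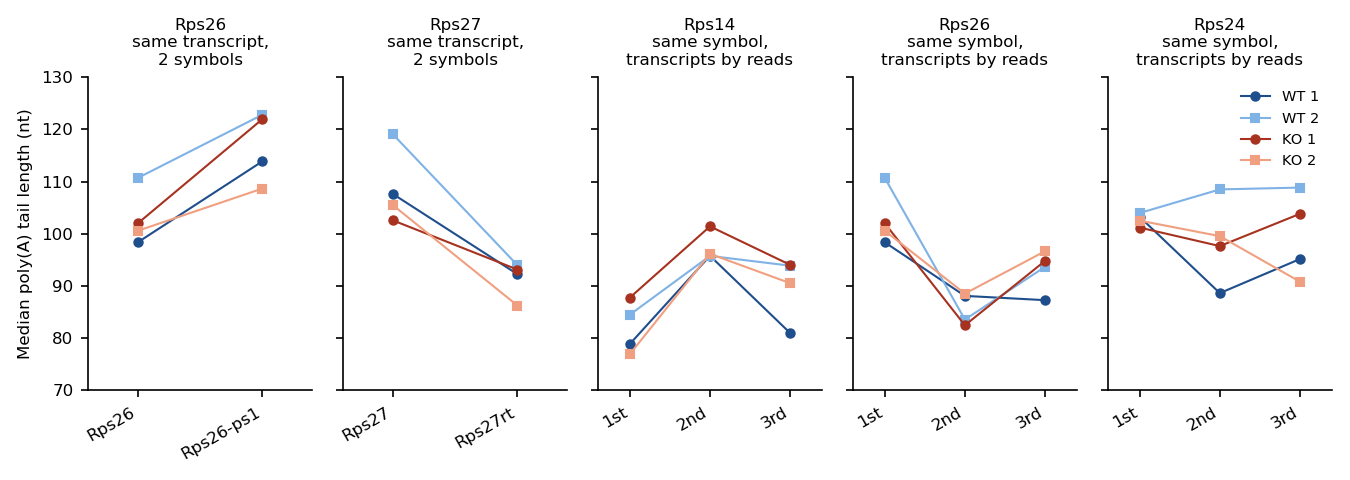
Median tail length (nt) in each library for reads of the same transcript under 2 symbols (left 2 panels) and for the 3 most frequent transcripts under the same symbol (right 3 panels), with lines joining points of a library. Rps26-ps1 lies above Rps26 and Rps27rt below Rps27 in all 4 libraries, while lines for Rps24 cross.

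No member passed the test for a change in tail length between the genotypes. Across the 1935 genes with at least 20 reads in every library, limma on log2 of the median tail called 0 genes at a Benjamini-Hochberg adjusted p of 0.05 (percent called 0), and 45 had an unadjusted p under 0.05 (2.33%, with 1.34% higher and 0.982% lower in KO), of which 0 were members. Limma without its trend term also called 0, with 65 at an unadjusted p under 0.05. The median log2 change (KO minus WT) over the 33 members was -0.03, with 4 higher in KO, against 0.01 over all genes tested, of which 51.8% were higher. The pooled SD of the member median between replicates was 0.06, larger than the change. The member median was 0.00 without WT 2 and 0.01 without KO 2, with 17 and 20 members higher, and -0.07 without WT 1 and -0.09 without KO 1. Relative to the median of all genes, the member median lay between -0.05 and -0.02 whichever library was left out. By symbol, the KO libraries lay below both WT libraries in 7 members, Rps10, Rps12, Rps13, Rps27, Rps27a, Rps6 and Rps7, which is 21.2% of 33 against 11.8% of all genes. They lay above in 0 members against 14.7% of all genes, so that 21.2% of members and 26.5% of all genes did not overlap in either direction. Tails of Rps7, Rps13 and Rps27 by symbol are uncertain, as their transcripts carry other symbols. Over all symbols, the main transcript of Rps13 had 98.45 and 108.8 nt in WT 1 and WT 2. It had 103.7 and 91.5 nt in KO 1 and KO 2, so the genotypes overlapped. That of Rps7 overlapped as well, while that of Rps27 did not, with 97.7 nt in WT 1 and 97.6 nt in KO 1.

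The smallest p-values for tail length among members were those of Rps7, Rps10 and Rps9. For Rps7 the log2 change was -0.22 ± 0.13 (SE, limma adjusted p = 0.9998). Without WT 2, its highest library, the change was -0.06, and without WT 1 it was -0.37. Rps10, a head protein next to the mRNA entry, had 101.6 and 98.9 nt in WT 1 and WT 2, and 95.1 and 91.1 nt in KO 1 and KO 2. Both KO libraries were the lowest, and the log2 change was -0.11 ± 0.10 (SE, limma adjusted p = 0.9998). Rps9 had 86.8 and 102.7 nt in WT 1 and WT 2, and 102.0 and 100.6 nt in KO 1 and KO 2. Its log2 change of 0.10 ± 0.09 (SE, limma adjusted p = 0.9998) rested on WT 1, and without that library it was -0.02; without WT 2 it was 0.22. The SE of members had a median of 0.09.

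Read numbers of members did not pass the threshold either. Of 4815 genes tested, those averaging 10 reads or more, voom in limma called 0 at an adjusted p of 0.05, and limma with a trend on log2(RPM + 1) called 0 as well. Mov10 itself, with a log2 change of -5.09, was not called either (adjusted p = 0.0553 in limma's voom). Unadjusted p-values under 0.05 were found for 498 genes in voom (10.3%), with 5.17% of all genes higher and 5.17% lower in KO, and for 470 in the other model. Of the members 4 were among the 498 (12.1%), with 1 higher in KO (3.03%), Rps26, and 3 lower (9.09%), Rps28 and Rps3a1 among them. The median log2 change of the members was -0.20, with 6 of 33 higher in KO, against -0.01 for all genes, of which 49.4% were higher. The pooled replicate SD of the member median was 0.14, and the median was -0.04 without WT 1, -0.31 without WT 2 and -0.13 without KO 2. On the scale of total reads 12 of 33 members were higher, but the median of all genes was 0.11, and relative to it the member median was again -0.20, with 6 of 33 above. After scaling, the genotypes did not overlap in 15 members (45.5%, against 40.5% of all genes). Both KO libraries were below both WT libraries in 14 of these (42.4%, against 20.5%) and above in Rps26 (3.03%, against 20%). In RPM, without that scaling, they were below in 11 members (33.3%, against 15.5%) and above in 4, Fau, Rps15, Rps25 and Rps26 (12.1%, against 25.2%). The 15 head genes had a median of -0.19 and the 18 of body and platform -0.24. Among the 47 large subunit genes it was -0.26, with 3 higher.

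**Figure D5:**
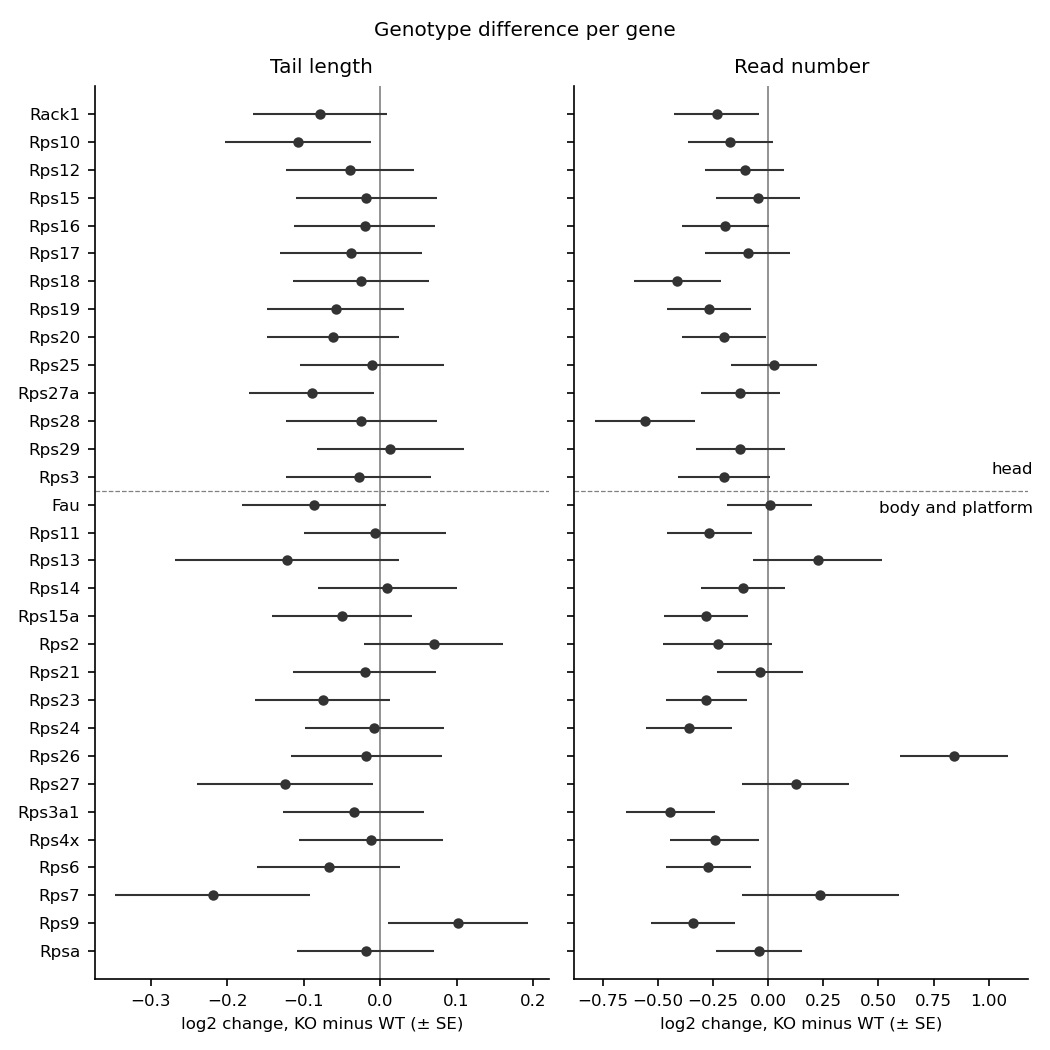
Log2 change of 31 members between genotypes (KO minus WT, point) with its standard error (bar), for tail length on the left and read number on the right, head proteins above and body and platform proteins below the dashed line. Of those plotted, 27 lie below 0 in tail length and 25 in read number, with Rps26 at 0.84.

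Rps26 was the member with the largest difference in reads. It had 2218 and 1401 RPM in WT 1 and WT 2, and 3600.5 and 3249 RPM in KO 1 and KO 2. Both KO libraries were above both WT libraries, and WT 2 was lowest. After scaling, the mean was 1913 ± 771 (SD, n = 2) scaled RPM in WT and 3296 ± 303 in KO, a ratio of 1.79. The log2 change was 0.84 ± 0.24 (SE), with an adjusted p of 0.189 in limma's voom. It passed with total read scaling (limma adjusted p = 0.0325), where 0.125% of all genes passed as higher, and with no filter on low genes (0.00963, with 0.311% of genes). Without WT 1 the log2 change was 1.26 (limma adjusted p = 1.43e-06), and without WT 2 it was 0.43. Fits that leave out a WT library hold a single WT library, which is assumed to vary like the others, so that the KO pair alone supplies the spread between libraries. Of all genes 1.21% passed as higher without WT 1, and 5.07% as lower without WT 2. Over all symbols on its main transcript the levels were 4243 and 3053 RPM in WT 1 and WT 2, and 4982 and 5139 RPM in KO 1 and KO 2, a log2 change of 0.37 (limma adjusted p = 0.676). Counted on any transcript, reads under Rps26-ps1 were level, with 2418 and 2500.5 RPM in WT 1 and WT 2, and 2418 and 2698 RPM in KO 1 and KO 2. On the main transcript of Rps26 they had 2166 and 1857 RPM in WT 1 and WT 2. In KO 1 and KO 2 they had 1890 and 2212 RPM there. The share of that transcript's reads under Rps26 was 47.3 and 36.7% in WT 1 and WT 2. It was 59.8 and 55.5% in KO 1 and KO 2. Genes next to Rps26 differed in the same direction: of 17 tested neighbours on chromosome 10, from Spryd4 to Bloc1s1 in the gene order of GRCm38.p6, 16 were higher in KO, with a median log2 change of 0.51 and a range from -0.02 to 1.30. This was the highest neighbour median for any of the 33 members, the next being 0.20 around Rps27. Neighbours were looked at after the values had been seen, and their part in the result was not tested.

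Rps28 and Rps3a1 had lower read numbers in KO at an unadjusted p under 0.05. Rps28 had 3736 and 2768 RPM in WT 1 and WT 2, and 2534 and 2193 RPM in KO 1 and KO 2, highest in WT 1 and with both WT libraries above both KO libraries. Its log2 change was -0.56 ± 0.23 (SE) with an adjusted p of 0.411 in limma, and -0.25 without WT 1; with WT 1 as the lone WT library it was -0.86 (limma adjusted p = 0.000366). Rps3a1, a platform protein near the mRNA exit, had 4807 and 5007 RPM in WT 1 and WT 2, and 4409.9 and 3407 RPM in KO 1 and KO 2. KO 2 was lowest, and the log2 change was -0.44 ± 0.20 (SE) with an adjusted p of 0.463 in limma; without KO 2 it was -0.24. Against WT 1 alone, where 451 of 5086 genes passed in either direction, Rps18 (log2 change -0.55, limma adjusted p = 0.0266) and Rps2 (-0.70, 0.00272) were also under the threshold. Against WT 2 alone, where 93 of 4978 genes passed, Rps7 had a log2 change of 1.06 (limma adjusted p = 0.0102), on 100 reads in WT 2. These p-values rest on the spread of the KO pair, and the members under the threshold differed with the WT library left out. The sums of stem cell markers were lower in KO as well, and their part in these differences was not tested.

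The genes that build and regulate the subunit were taken from lists of 47 assembly factors, 9 genes of Rps6 signalling and 14 other TOP mRNAs. Of the assembly factors 19 could be tested for tail length and 45 for read number, and limma called 0 in both, with 0 and 2 at an unadjusted p under 0.05. Their median log2 change was -0.03 in tail length (9 of 19 higher) and -0.09 in read number (22 of 45 higher). Nop58, a core protein of snoRNA particles, had a log2 change in reads of -0.56 ± 0.25 (SE, limma adjusted p = 0.458), and Nob1, the nuclease that makes the mature end of the small rRNA, -0.999 ± 0.45 (adjusted p = 0.458). For tail length the smallest p-values were those of Emg1, at 0.20, and Utp4, at -0.27 (limma adjusted p = 0.9998 for both). Of the Rps6 signalling genes 3 and 7 could be tested and limma called 0, with 0 and 1 at an unadjusted p under 0.05. In read number 6 of 7 were higher in KO, with a median log2 change of 0.31, and Larp1, the TOP mRNA binding protein, had 0.69 ± 0.32 (SE, limma adjusted p = 0.470). The 14 other TOP mRNAs had a median of 0.05 in tail length (11 higher) and -0.18 in read number (4 higher), and limma called 0 in both, with 0 and 2 at an unadjusted p under 0.05. Eif3h, a subunit of an initiation factor, had -0.58 ± 0.25 (SE, limma adjusted p = 0.449) and Eef1a1, the elongation factor that brings tRNAs, -0.41 ± 0.19 (adjusted p = 0.463).

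The authors' deposited classes placed 17 members among Mov10 targets without m6A, 1 (Rps28) among targets with m6A and 9 among non-targets, and gave no class for Rack1, Rps15, Rps18, Rps19, Rps27a and Rps9. How the classes were made is not given in the sources used here. The members named above for the largest read differences fell in different classes: Rps26 and Rps3a1 are targets without m6A and Rps28 is the target with m6A. The share of each class over all genes was not taken, so no link of class with change can be read from these members or counts.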

How the data were processed

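Direct RNA nanopore reads of 4 libraries were used, 2 WT and 2 KO, grouped and numbered by their titles. Per the labels' protocols, poly(A) RNA was selected on oligo(dT) beads and libraries were multiplexed with DeePlexiCon adapters and run on a MinION. The submitters' processing notes name minimap2 2.20, an aligner, with no role given. The basecaller, tail estimator, genome build and annotation are not given in the sources used here. The authors deposited, per the file headers, 1 row per read with a transcript, symbol, library and tail length in nt, and 3 columns of classes that are yes or no. The lengths are estimates on their own scale with no normalization stated, neither a count nor a score. Of 1903922 reads, 3 with a length of 0 were left out.

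Reads were collapsed to the median tail and the number of reads per symbol and library, since the table has no counts of its own. Tail length was tested with limma 3.58.1 (R 4.3.3) on log2 of the median, with mean reads as trend, where every library had 20 reads or more of the gene. Reads were tested with limma's voom, adding 0.5 reads, on genes averaging 10 reads or more, scaled by the median of ratios. P-values were adjusted by Benjamini-Hochberg over all genes tested; the threshold was 0.05. Intervals of medians come from order statistics and those of shares are exact binomial, both at 95%. Both fits were tested on simulated data. The tail fit recovered 36% of genes given a log2 change of 0.5 and 87% of those given 1. The read fit recovered 9% of genes given a log2 change of 1 and 62% of those given 2. These rates are over genes of all depths tested. The simulated reads had the same added spread for every gene and were scaled by total reads. A count of 0 called over all genes therefore cannot show that changes of such sizes, or smaller ones, are absent. The median SE of members was 0.19 in read number and 0.09 in tail length, against 0.39 and 0.17 over all genes. Recovery among members alone was not simulated. Tables were handled with Python 3.11.15, pandas 2.3.3, numpy 2.4.6 and scipy 1.17.1.

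Named members are those with the 4 longest and shortest tails, the 4 most and fewest reads, the 3 smallest p-values in each test, and Rps6, Rpsa, Rack1, Fau, Rps27a, Rps2, Rps3, Rps14 and Rps19; Rps3a1, Rps24 and Rps25 were added after their values were seen. In addition, 2 members enter every count but are not reported by name here. Members and lists were chosen with earlier results of these data known. Alternatives changed the summary, filter, centring, scaling, weights, model, depth, feature and pairing, or left out each library; the fits per transcript over all symbols, overlap in RPM, all reads on main transcripts in the share of reads, at least 200 reads in the comparison with other genes, and leaving out libraries in the comparisons within libraries were added after seeing the data. Promoter windows are from RefSeq, GRCm38.p6.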

Additional observations from a re-analysis of the deposited data

How the results depend on the processing

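The count of genes called for tail length, 0, was 1 with at least 10 reads per library and 0 to 2 when each library was left out. The count for read number, also 0, was 7 with total read scaling, 1 with upper quartile scaling, 96 with no filter, 8 with library weights, and 0 to 451 when each library was left out (93 without WT 1, 451 without WT 2). With the replicate number as a block it was 66, with Rps26 (limma adjusted p = 0.0145) among them, but nothing in the labels pairs libraries of the same number. The correlation of deviations of same-numbered libraries was 0.01 for tail length and 0.02 for read number over all genes, and 0.43 and 0.08 over the members. The block called 0 genes for tail length. Leaving out each library moved the member median change in reads between -0.31 and -0.0380, in tail length between -0.09 and 0.01, and the log2 change in tail length of Rps9 between -0.0188 and 0.22, reversing it without WT 1. It moved the change in the share of reads between -1.54 and -0.223 points, in short tails between -0.689 and 0.137 points and in long tails between -2.85 and 2.31 points. The log2 difference in tail length between members and other genes was -0.0603 with the mean of log2 tails and -0.0507 with at least 200 reads, and -0.11 to -0.08 when each library was left out; between small and large subunit genes it was -0.01 to 0.00. Causes were not tested. Other alternatives kept the direction of these member results, except that the share of long tails was 0.133 points higher in KO with a limit of 200 nt, and that small minus large was 0.00104 with the mean of log2 tails. Depth limits tails most for Rps13, with 63 reads in WT 2.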

Other observations

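Close relatives of members were also read. Rps27l, the paralog of Rps27 that is induced by p53, had 853.2 and 1119 RPM in WT 1 and WT 2, and 996.7 and 932.5 RPM in KO 1 and KO 2, with the genotypes overlapping (log2 change -0.13 ± 0.23, limma adjusted p = 0.886). Its tails were 107.2 and 118.6 nt in WT 1 and WT 2, and 115.7 and 104.0 nt in KO 1 and KO 2. Rps4l, a paralog of Rps4x, had 1081 and 860.1 RPM in WT 1 and WT 2, and 658.6 and 762.8 RPM in KO 1 and KO 2. Both KO libraries were lower, with a log2 change of -0.56 ± 0.24 (SE, limma adjusted p = 0.449). Rps27rt, whose symbol shares the main transcript of Rps27, had 1656 and 1626 RPM in WT 1 and WT 2, and 1529 and 1544 RPM in KO 1 and KO 2 in all (log2 change -0.21, limma adjusted p = 0.783). Reads under Rps2-ps10 had 1690.4 and 2219 RPM in WT 1 and WT 2, and 1508 and 1788 RPM in KO 1 and KO 2, lowest in KO 1.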
